A study of Mus musculus with 9 samples.

Results

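The ADAM, ADAMTS, MMP and TIMP genes encode the main metalloproteinases of the extracellular space and their inhibitors. They were taken as every gene whose symbol in the platform annotation is Adam, Adamts, Mmp or Timp followed by a number and at most 1 letter, with the brightest probe set on average across the 9 arrays standing for the gene. This gave 65 of the 18193 genes measured: 28 ADAM, 15 ADAMTS, 18 MMP and 4 TIMP genes, with 116 probe sets in all. Their expression was followed across 3 flow-sorted cell populations of mouse back skin at postnatal day 2. R1 is the GFP-CD133- gate, the dermal pool with the papillae left out. R2 is the GFP-CD133+ gate, labelled as dermal papillae of zigzag hairs, and R3 the GFP+CD133+ gate, labelled as dermal papillae of guard, awl and auchene hairs. The dermal papilla is the mesenchymal core at the base of a hair follicle. CD133 is the product of Prom1, and GFP is known as a reporter of Sox2 in the mice used for such sorts, so that R1 and R2 are the GFP-negative cells of animals that yielded GFP-positive cells. Mice 2, 4 and 5 each gave 1 array per gate, and the labels state no strain, sex or allele. The arrays differ in which cells a gate admitted, so that more cells of a type and more RNA per cell cannot be told apart.

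These proteases share a zinc ion in the catalytic site and a prodomain that keeps them inactive. ADAM proteins sit in the cell membrane and cut other membrane proteins free, although a subset lacks the zinc site and acts in adhesion. ADAMTS proteases are secreted and bind the matrix, where they trim procollagens or cut large proteoglycans such as versican and aggrecan. Matrix metalloproteinases (MMPs) degrade collagens, gelatin, laminin and fibronectin, and TIMPs block the active site of MMPs and of some ADAM and ADAMTS enzymes. The dermal papilla is known for a proteoglycan-rich matrix, and the surrounding dermis for fibrillar collagen.

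Values are log2 expression values, and replicate values are given for mice 2, 4 and 5 in that order. Array medians lay between 6.13 and 6.20. As a guide to background, 43 probe sets for olfactory receptors were used, whose 95th percentile lay between 5.02 and 5.47 on the 9 arrays. Levels of different genes come from different probes and were not ranked against each other. The genes behind the sort followed the labels in part: Sox2 averaged 4.19 in R1, 7.08 in R2 and 10.7 in R3, and Prom1 7.43, 11.9 and 10.3. In the GFP-negative R2, Sox2 lay above the background guide and was 7.44-fold higher than in R1 (limma adjusted p = 0.000192). Prom1 lay above the guide in the CD133-negative R1. Whether the gates share cells was not tested. RNA quality was read from the beta-actin controls, whose 3' signal exceeded the 5' signal by 0.04 to 0.07 in R1, 0.11 to 0.22 in R2 and 0.12 to 0.20 in R3. For Gapdh this measure overlapped between the gates. The part of RNA quality in the differences from R1 was not tested.

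Marker genes of other cell types moved with the gates. Of 16 endothelial genes, 14 were higher in R2 than in R1, 15 were lower in R3 than in R2, and 10 were lower and 2 higher in R3 than in R1. Their mean level was 6.79 to 7.09 on the R1 arrays, 8.32 to 8.61 in R2 and 5.94 to 6.25 in R3, where Tie1, Emcn, Robo4, Esam, Plvap, Vwf and Ecscr lay at or under the background guide. Of 10 Schwann and glial genes, 9 were higher in R3 than in R2 and 5 lower in R2 than in R1, with mean levels of 6.67 to 7.01 in R1, 5.66 to 5.85 in R2 and 8.41 to 8.62 in R3. Foxd3, Cdh19, Gfra3 and Fabp7 were at or under the guide in R2. Keratinocyte genes (15 of 16 lower in R2 and 15 of 16 lower in R3) and leukocyte genes (11 and 10 of 16 lower) were highest in R1. The mean level of the keratinocyte genes was 10.05 to 10.70 in R1, 7.23 to 7.50 in R2 and 6.91 to 7.68 in R3. Their median change was -3.31 in R2 and -2.91 in R3 against R1. The R1 pool thus also held keratinocyte RNA, and its part in the comparisons with R1 was not tested. Melanocyte genes (5 and 6 of 7) were also lower than in R1. Of 13 dermal fibroblast genes, 6 were lower in R2 and 7 in R3 than in R1, and 4 were lower in R3 than in R2. Of 10 pericyte and smooth muscle genes, 3 were higher and 4 lower in R2 than in R1, and of 9 skeletal muscle genes 1 was higher and 3 lower. Of 20 dermal papilla genes, 15 were higher in R2 and 20 in R3 than in R1; that list includes Sox2 and Prom1, on which the cells were sorted.

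**Figure D1:**
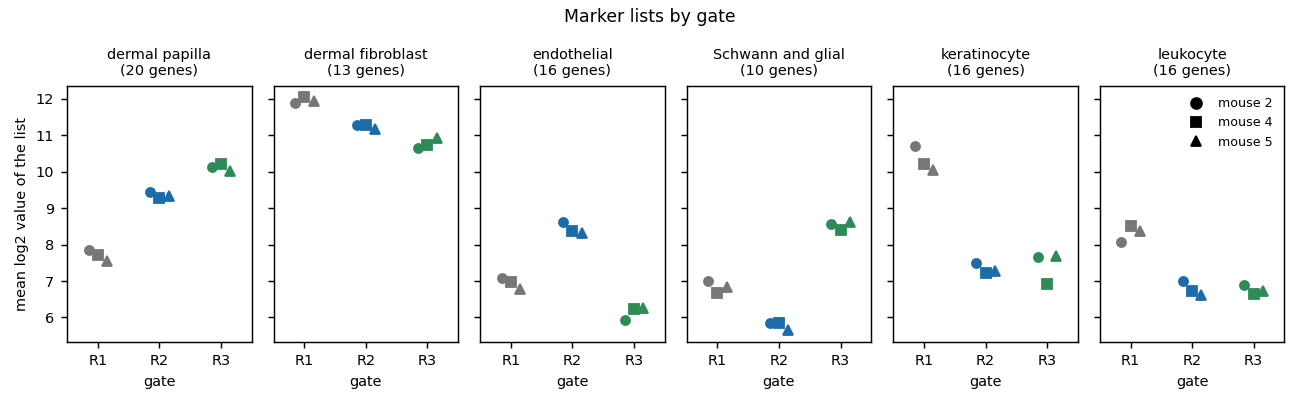
Mean log2 value of 6 marker lists (vertical axis) on each array, by gate (horizontal axis); symbols mark the mouse. Endothelial lists peak in R2 (8.32 to 8.61), Schwann and glial lists in R3 (8.41 to 8.62), and keratinocyte and leukocyte lists in R1.

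Against this background, 22 of the 65 genes (33.8%) were called in at least 1 comparison between gates (limma, Benjamini-Hochberg adjusted p under 0.05 over all 18193 genes), where 23.2% of all genes were. In all 3 comparisons 5 were called (7.69%), where 1.21% of all genes were. By family the calls in at least 1 comparison fell on 8 of 15 ADAMTS, 8 of 18 MMP, 5 of 28 ADAM and 1 of 4 TIMP genes. The 3 comparisons share arrays in pairs, so their calls are not independent of each other. In R2 against R1, 15 genes were called (23.1%), 7 higher and 8 lower, where 13.1% of all genes were called (6.89% higher, 6.16% lower). In R3 against R1, 19 were called (29.2%), 9 higher and 10 lower, where 18.7% of all genes were called (7.9% higher, 10.8% lower). In R3 against R2, 8 were called (12.3%), 3 higher and 5 lower, where 5.03% of all genes were called (1.97% higher, 3.06% lower). The median change of the 65 genes was -0.12 in R2 against R1, 0.03 in R3 against R1 and 0.06 in R3 against R2, beside medians of -0.02, -0.01 and -0.01 over all genes. Changes of at least 2-fold were seen for 10, 11 and 3 of the 65 genes (15.4%, 16.9% and 4.62%), beside 6.84%, 8.76% and 3.64% of all genes. The arrays of both gates did not overlap for 28 of the 65 genes in R2 against R1 (43.1%, 30.8% of all genes), for 29 in R3 against R1 (44.6%, 34.4% of all genes) and for 22 in R3 against R2 (33.8%, 22.7% of all genes).

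**Figure D2:**
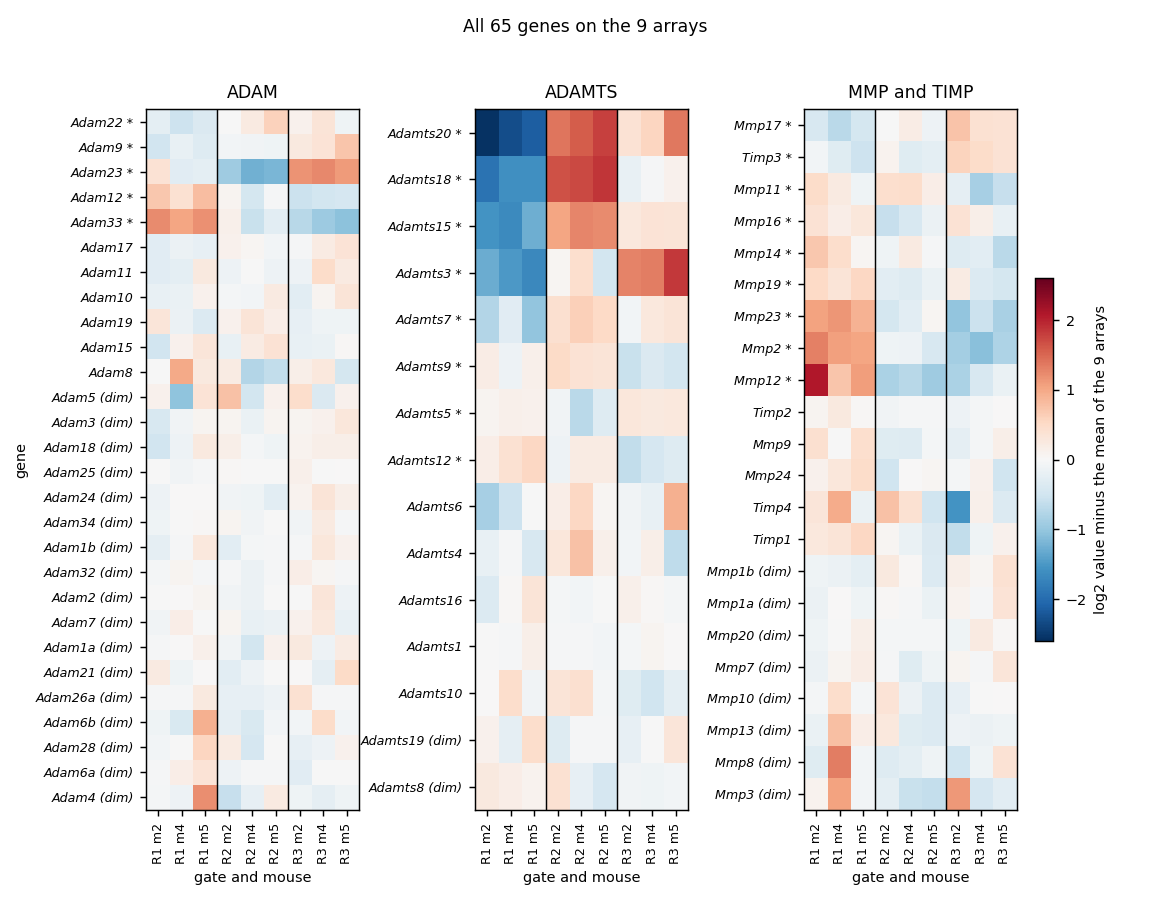
Log2 value minus the mean of the 9 arrays (colour) for all 65 genes (rows) on the 9 arrays (columns, gate and mouse), by family; an asterisk marks the 22 genes called in a comparison and "dim" those with every gate mean under the background guide that were not called. Called genes were placed first in each panel, then uncalled genes above the guide, then dim genes, so the blocks of colour sit in the upper rows by this order. Adamts20, Adamts18 and Adamts15 were low in all 3 R1 arrays and Mmp2, Mmp23 and Adam33 high there.

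ADAMTS proteases held the largest rises in both papilla gates. Adamts20, Adamts18 and Adamts15 were each more than 6-fold higher in R2 than in R1 and at least 3.18-fold higher in R3 than in R1, and each had every R2 array above every R1 and R3 array, a pattern shown by 5 of the 65 genes and by 4.58% of all genes. Adamts20, a secreted protease known from the belted coat mutants, which carry a white belt, stood at 7.12, 7.38 and 7.54 in R1, 11.07, 11.26 and 11.46 in R2 and 10.07, 10.25 and 11.05 in R3. All 6 papilla arrays lay above the R1 arrays by a wide margin, and mouse 5 gave the highest value in each gate. The change was 3.92 in R2 against R1 (standard error 0.24, 15.1-fold, n = 3 per gate, limma adjusted p = 1.79e-05) and 3.11 in R3 against R1 (8.65-fold, limma adjusted p = 3.69e-05). Between the papilla gates it was lower in R3 by 0.81 (95% interval -1.36 to -0.26), which did not pass (limma adjusted p = 0.104). With the mouse as a block it did (limma adjusted p = 0.0344).

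Adamts18, a protease with few known substrates, stood at 6.48, 6.80 and 6.80 in R1, 10.05, 10.11 and 10.27 in R2 and 8.20, 8.37 and 8.51 in R3. The 3 gates formed separate steps with no overlap. It was 10.9-fold higher in R2 than in R1 (log2 change 3.45, standard error 0.14, limma adjusted p = 2.71e-06), 3.18-fold higher in R3 than in R1 (limma adjusted p = 5.74e-05) and 3.44-fold lower in R3 than R2 (log2 change -1.78, limma adjusted p = 0.000104). Adamts15, which cleaves versican and aggrecan, stood at 7.89, 7.79 and 8.16 in R1, 10.45, 10.71 and 10.66 in R2 and 9.70, 9.79 and 9.76 in R3. Its gates stood in the same order, again with no overlap. It was 6.33-fold higher in R2 than in R1 (log2 change 2.66, standard error 0.14, limma adjusted p = 6.81e-06), 3.5-fold higher in R3 than in R1 (limma adjusted p = 2.78e-05) and 1.81-fold lower in R3 than R2 (limma adjusted p = 0.00593). Endothelial markers were likewise highest in R2. Of 16 endothelial genes, 14 were higher in R2 than in R1 and 15 lower in R3 than in R2. In R3 against R1, 10 were lower and 2, Kdr and Flt1, higher. The part of endothelial cells in the levels of these 3 proteases was not tested. The 2 dimmer probe sets of Adamts18 gave smaller changes, 2.46 and 2.52 in R2 against R1 and 1.01 and 1.17 in R3 against R1, of which the last was not called when all probe sets were tested singly (limma adjusted p = 0.071).

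Adamts3, a procollagen N-proteinase that also activates VEGF-C, rose in steps from R1 to R3. It stood at 5.71, 5.52 and 5.33 in R1, near the background guide, at 7.05, 7.43 and 6.52 in R2 and at 8.30, 8.34 and 8.84 in R3. No arrays of different gates overlapped. It was 2.79-fold higher in R2 than in R1 (log2 change 1.48, standard error 0.24, limma adjusted p = 0.00334), 2.81-fold higher in R3 than R2 (log2 change 1.49, limma adjusted p = 0.00638) and 7.84-fold higher in R3 than in R1 (limma adjusted p = 4.24e-05). Its second, dimmer probe set moved the same way with smaller changes (0.41 in R2 against R1 and 0.76 in R3 against R2). In the singly tested fit it was called in R3 against R1 (1.17, limma adjusted p = 0.0159) and not in R2 against R1 (0.396) or R3 against R2 (0.185). Of the 10 Schwann and glial markers, 5 were lower in R2 than in R1 and 9 higher in R3 than in R2, and their part in the level of Adamts3 was not tested.

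Adamts7, a protease of cartilage oligomeric matrix protein, was the fifth ADAMTS gene higher in both papilla gates, at 6.25, 6.72 and 6.0 in R1, 7.43, 7.64 and 7.55 in R2 and 6.94, 7.31 and 7.36 in R3. It was 2.32-fold higher in R2 (limma adjusted p = 0.00309) and 1.84-fold higher in R3 (limma adjusted p = 0.0117) than in R1. Its close relative Adamts12 went the other way, from 10.01, 10.23 and 10.37 in R1 to 9.19, 9.41 and 9.50 in R3, 1.79-fold lower (limma adjusted p = 0.0046). Between the papilla gates Adamts12 was lower in R3 by 0.57 without passing (limma adjusted p = 0.0689), and passed with the mouse as a block (limma adjusted p = 0.0281).

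The remaining proteoglycan-cleaving ADAMTS genes did not share the rise of Adamts15 and Adamts20. Adamts9 stood at 8.88, 8.54 and 8.81 in R1, 9.18, 9.06 and 9.02 in R2 and 8.11, 8.31 and 8.20 in R3, and every R3 array lay below all others. It was 1.84-fold lower in R3 than R2 (log2 change -0.88, standard error 0.13, limma adjusted p = 0.00411) and 1.45-fold lower than in R1 (limma adjusted p = 0.0182), the latter not called without R1 replicate 2 (0.0637), R1 replicate 5 (0.0543) or R3 replicate 2 (0.0609). Adamts9 fell in R3 beside 15 of 16 endothelial genes, and their part in its level was not tested. Adamts5, the main aggrecanase of cartilage, was lowest in R2 at 10.37, 9.74 and 10.11, against 10.52, 10.59 and 10.57 in R1 and 10.75, 10.70 and 10.72 in R3. Adamts5 was 1.57-fold higher in R3 than R2 (limma adjusted p = 0.0446), a call at the threshold: the limma adjusted p was 0.0646 to 0.12 without any single array other than R2 replicate 2, and 0.0631 with the mouse as a block. With only the 6 arrays compared, Adamts5 gave a limma adjusted p of 0.0969. Of its other probe sets, 2 were called lower in R2 than in R1 when tested singly (-0.82, limma adjusted p = 0.0206, and -1.08, limma adjusted p = 0.0301).

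Adamts1, which lies next to Adamts5 in the genome, stood at 12.74, 12.73 and 12.91 in R1, 12.72, 12.73 and 12.68 in R2 and 12.71, 12.84 and 12.77 in R3. Its changes were between -0.09 and 0.06, with 95% intervals that all lay between -0.33 and 0.31. Adamts4, another aggrecanase, differed by 0.61 in R2 against R1 without passing (limma adjusted p = 0.128), and passed with the mouse as a block (limma adjusted p = 0.0278) and with its probe sets averaged. Adamts8, the neighbour of Adamts15, and Adamts19 stayed under the background guide in every gate. Adamts6, Adamts10 and Adamts16 lay above it and were called in no comparison by their brightest probe set. The probe sets of Adamts16 disagreed: the second, dimmer one averaged 6.54 in R1, 5.38 in R2 and 4.38 in R3. Tested singly, it was lower by 1.16 in R2 than in R1 (limma adjusted p = 0.00385), by 2.15 in R3 than in R1 (8.08e-05) and by 0.99 in R3 than in R2 (0.016). With probe sets averaged, Adamts16 was called lower in both papilla gates than in R1, and Adamts10 and Adamts4 lower in R3 than in R2.

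**Figure D3:**
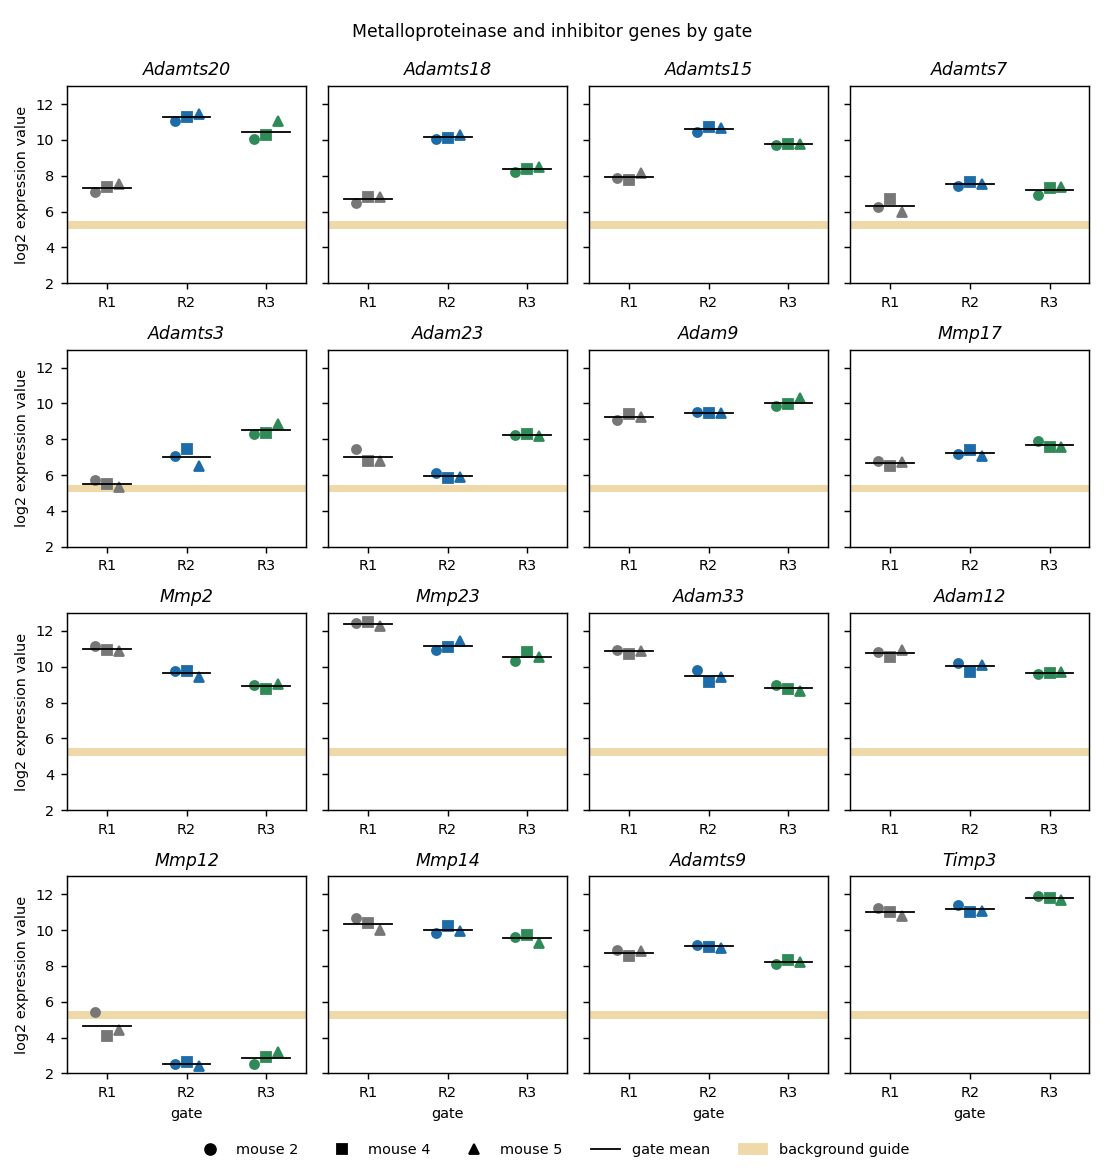
Log2 expression value (vertical axis) by gate (horizontal axis) for 16 of the genes; symbols mark the mouse, lines the gate mean and the shaded band the background guide (5.02 to 5.47). The upper row holds genes highest in R2, the next genes highest in R3, the third genes highest in R1, and the last Mmp12, Mmp14, Adamts9 and Timp3.

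The called MMP genes showed mainly the opposite direction. Of 18 MMP genes, 5 were lower and 1 higher in R2 than in R1, and 6 were lower and 1 higher in R3 than in R1. Of all genes, 6.16% were lower and 6.89% higher in R2, and 10.8% lower and 7.9% higher in R3. Of the 18 MMP genes, 9 lay under the background guide in every gate, among them Mmp12, called lower in both comparisons. Mmp2, the gelatinase of fibroblasts, stood at 11.16, 10.93 and 10.89 in R1, 9.75, 9.74 and 9.45 in R2 and 8.97, 8.78 and 9.05 in R3. The gates formed descending steps with no overlap, an order found in 3 of the 65 genes and in 2.21% of all genes. It was 2.55-fold lower in R2 than in R1 (log2 change -1.35, standard error 0.14, limma adjusted p = 0.000275) and 4.18-fold lower in R3 than in R1 (log2 change -2.06, limma adjusted p = 1.67e-05). In R3 it was also 1.64-fold lower than in R2 (limma adjusted p = 0.0199), a call lost when R2 replicate 2 (0.0781) or 4 (0.0795) or R3 replicate 2 (0.056) or 4 (0.0807) was left out. A second probe set gave changes of -1.35, -2.14 and -0.80 for the same 3 comparisons.

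Mmp23, a membrane-tethered MMP with an unusual short structure, followed the same steps at 12.42, 12.51 and 12.27 in R1, 10.91, 11.09 and 11.42 in R2 and 10.34, 10.80 and 10.52 in R3. It was 2.4-fold lower in R2 (log2 change -1.26, limma adjusted p = 0.00119) and 3.59-fold lower in R3 (log2 change -1.85, limma adjusted p = 9.21e-05) than in R1, with a smaller difference between the papilla gates that did not pass (-0.58, limma adjusted p = 0.0912). Mmp14, the membrane protease that activates pro-Mmp2, declined less. Its values were 10.67, 10.42 and 10.02 in R1, 9.86, 10.21 and 9.95 in R2 and 9.64, 9.71 and 9.26 in R3, with R1 and R2 overlapping. It was called only in R3 against R1 (1.78-fold lower, limma adjusted p = 0.0157), and not without R1 replicate 2 (0.0545), R1 replicate 4 (0.0514) or R3 replicate 5 (0.0525). Its other probe sets, tested singly, gave larger changes in R3 against R1 (-0.98, limma adjusted p = 0.00706, and -1.27, limma adjusted p = 0.00262). In R2 against R1 they changed by -0.68 and -0.67 without a call (limma adjusted p = 0.0501 and 0.0663), and the brightest by -0.36. In the same comparisons 6 and 7 of 13 dermal fibroblast genes were called lower and 0 higher. Keratinocyte genes (15 and 15 of 16), leukocyte genes (11 and 10 of 16) and melanocyte genes (5 and 6 of 7) were also lower. The part of these cell types in the MMP levels was not tested.

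Mmp19, at 8.27, 8.07 and 8.27 in R1, was 1.66-fold lower in R2 (limma adjusted p = 0.0245) and 1.58-fold lower in R3 (limma adjusted p = 0.0275). Its second probe set, of similar brightness, gave larger changes of -1.56 in R2 (limma adjusted p = 0.000187) and -1.48 in R3 (limma adjusted p = 0.000152) when tested singly. For the first probe set, the R2 call was lost without R1 replicate 2 (0.0736), R1 replicate 5 (0.0689), R2 replicate 2 (0.0695) or R2 replicate 4 (0.0831). The R3 call was lost without R1 replicate 2 (0.0794), R1 replicate 5 (0.0734), R3 replicate 4 (0.0949) or R3 replicate 5 (0.0854), and after each array was centred on its median (0.0677) or quantile normalized again (0.0677). Using only the 6 arrays compared (0.0615) lost it as well. Mmp11, stromelysin-3, was lowest in R3 at 8.92, 8.28 and 8.54, against 9.62, 9.38 and 9.04 in R1 and 9.58, 9.61 and 9.32 in R2. In R3 it was 1.9-fold below R2 (limma adjusted p = 0.0294) and 1.7-fold lower than in R1 (limma adjusted p = 0.0252). The first call was lost when R2 replicate 2 (0.0999) or 4 (0.105) or R3 replicate 4 (0.104) or 5 (0.0749) was left out, and the second when R1 replicate 2 (0.0858) or 4 (0.0719) or R3 replicate 4 (0.0904) or 5 (0.0669) was. The second was also lost with only the 6 arrays compared (0.0528).

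The membrane-bound MMPs split. Mmp17, which is held by a lipid anchor, rose from 6.77, 6.48 and 6.72 in R1 to 7.91, 7.59 and 7.55 in R3, 2.04-fold higher (limma adjusted p = 0.00136). It stood between these in R2 at 7.18, 7.38 and 7.06, 1.46-fold above R1 (limma adjusted p = 0.042), where the call was lost with the mouse as a block (0.0547) and without any single array other than R3 replicate 2 or R3 replicate 5 (0.0519 to 0.143). The R2 call was also lost with only the 6 arrays compared (0.0534) and with trend and robust variance (0.0592). Mmp16 was lowest in R2, at 7.46, 7.63 and 7.89 against 8.42, 8.22 and 8.35 in R1, 1.59-fold lower (limma adjusted p = 0.0315). This call was lost with the mouse as a block (0.0578) and without any single array of R1, R2 replicate 2 or R2 replicate 4 (0.0569 to 0.105). Centring each array on its median (0.0566) lost it too. Mmp24 was called in no comparison.

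Mmp12, the elastase of macrophages, was dim throughout and higher in R1 than in both papilla gates, which overlapped. It stood at 5.43, 4.08 and 4.43 in R1, 2.52, 2.62 and 2.43 in R2 and 2.53, 2.93 and 3.18 in R3, all under the upper end of the background guide. The fit gave changes of -2.12 (limma adjusted p = 0.00184) in R2 and -1.76 (limma adjusted p = 0.00359) in R3 against R1, which rest on dim signals. Leukocyte markers were also higher in R1, and their part in the level of Mmp12 was not tested. Mmp9, the second gelatinase, known from leukocytes and keratinocytes at wound edges, lay close to the guide at 5.82, 5.39 and 5.84 in R1, 5.08, 5.07 and 5.36 in R2 and 5.16, 5.36 and 5.57 in R3. It was called in no comparison (limma adjusted p = 0.0815, 0.237 and 0.615 for R2 against R1, R3 against R1 and R3 against R2). It passed in R2 against R1 without R1 replicate 4 (0.0426), and with the mean of its probe sets in R2 (0.0343) and R3 (0.0425) against R1.

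The dim MMP genes were neighbours. Of the 18 MMP genes, 9 lie on mouse chromosome 9, where Mmp13, Mmp12, Mmp1b, Mmp3, Mmp1a, Mmp10 and Mmp8 follow each other directly among the protein-coding genes, as do Mmp20 and Mmp7. These 9 had every gate mean under the background guide, and 8 of them were called in no comparison, Mmp12 being the exception. Single arrays of Mmp3 lay above the guide, at 6.10 in R1 of mouse 4 and 6.19 in R3 of mouse 2. RefSeq promoter windows (GRCm38.p6) were matched for 37 of the 65 genes, with 42 starts. In the 250 bases before each start, the AP-1 motif TGANTCA together with the TATA box TATAAA (either strand) was found for 7 of these 9 MMP genes and for 0 of the other 28 matched genes, where 1.21% of all 32851 windows hold both. Some windows of the other genes lie wholly inside the annotated gene span, among them those of Adamts3, Adamts9, Adamts18, Adamts20, Adam8 and Mmp23. The 9 MMP genes are neighbours of 1 family, so their matches were not taken as independent of each other. A match describes letters only and says nothing of binding. The windows of Mmp3 and Mmp13 are shown for that pair of motifs, that of their neighbour Mmp12 for its lack, and those of Mmp11 and Timp3, both well above background here, for comparison. These windows were chosen after the matches were seen. Capitals mark matches on either strand to the AP-1 motif, the TATA box or the GC box GGGCGG.
Mmp3, chr9:7445572-7445821, plus strand: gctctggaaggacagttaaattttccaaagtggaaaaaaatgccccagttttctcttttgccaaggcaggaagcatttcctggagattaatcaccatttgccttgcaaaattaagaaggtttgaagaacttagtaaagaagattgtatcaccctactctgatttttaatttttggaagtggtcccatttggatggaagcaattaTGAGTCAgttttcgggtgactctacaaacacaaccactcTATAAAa
Mmp13, chr9:7272264-7272513, plus strand: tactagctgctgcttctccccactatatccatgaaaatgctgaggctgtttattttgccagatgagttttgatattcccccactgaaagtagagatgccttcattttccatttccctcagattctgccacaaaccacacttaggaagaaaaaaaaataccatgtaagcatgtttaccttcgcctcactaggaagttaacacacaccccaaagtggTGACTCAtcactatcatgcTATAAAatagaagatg
Mmp12, chr9:7344147-7344396, plus strand: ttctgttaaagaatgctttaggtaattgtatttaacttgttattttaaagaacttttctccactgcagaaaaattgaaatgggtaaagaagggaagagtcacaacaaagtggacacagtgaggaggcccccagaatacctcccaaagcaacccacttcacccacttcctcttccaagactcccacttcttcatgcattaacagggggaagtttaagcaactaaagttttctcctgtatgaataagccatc
Mmp11, chr10:75932503-75932752, minus strand: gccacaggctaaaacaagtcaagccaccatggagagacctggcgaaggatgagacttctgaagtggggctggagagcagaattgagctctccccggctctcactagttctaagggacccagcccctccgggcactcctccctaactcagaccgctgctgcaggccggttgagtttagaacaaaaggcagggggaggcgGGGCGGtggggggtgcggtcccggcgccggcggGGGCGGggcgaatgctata
Timp3, chr10:86300162-86300411, plus strand: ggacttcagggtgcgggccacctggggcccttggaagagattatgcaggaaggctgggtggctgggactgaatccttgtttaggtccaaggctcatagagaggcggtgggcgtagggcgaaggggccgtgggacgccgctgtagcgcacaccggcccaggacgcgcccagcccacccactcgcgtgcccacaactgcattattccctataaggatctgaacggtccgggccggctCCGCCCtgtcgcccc

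In Mmp3 the AP-1 match began 46 bases before the start and the TATA match 7 bases before it, and in Mmp13 the AP-1 match began 35 bases and the TATA match 16 bases before it. Mmp12 has a second start in the table, whose window holds an AP-1 match. Mmp11 held 2 GC box matches with 14 CG pairs, and Timp3 held 1 with 18 CG pairs, against 1 CG pair in Mmp3, 1 in Mmp13, 0 in Mmp12 and a median of 6 over all windows. Over all windows, the core motif of SOX factors (AACAAT) was found in 9.42%. The core motif of TCF and LEF factors (CTTTGA) was found in 13.8%, AP-1 in 6.75%, the TATA box in 12.4% and the GC box in 32.7%. Among the 42 windows of these genes the counts were 3, 4, 10, 10 and 15 in that order.

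Among ADAM genes, the clearest difference between the papilla gates was that of Adam23, a neural adhesion protein without a working zinc site that binds secreted LGI proteins. Adam23 stood at 7.44, 6.77 and 6.81 in R1, 6.13, 5.82 and 5.88 in R2 and 8.23, 8.31 and 8.18 in R3, with R2 lowest and R3 highest and no overlap. Every R2 array was below all others in 3 of the 65 genes (Adam23, Adamts5 and the dim Adam26a) and in 2.77% of all genes, and every R3 array above all others in 7 of the 65 (Adam23, Adam9, Adamts3, Adamts5, Mmp17, Timp3 and the dim Adam24) and in 5.24% of all genes. In R3 it was 4.91-fold above R2 (log2 change 2.30, standard error 0.19, limma adjusted p = 0.000117), 2.09-fold lower in R2 than in R1 (limma adjusted p = 0.00502) and 2.35-fold higher in R3 than in R1 (limma adjusted p = 0.00155). Its dimmer probe sets moved the same way in R3 against R2, by 1.68 and 0.80, and were not called when all probe sets were tested singly (limma adjusted p = 0.0507 and 0.0681). In R3 against R1 they moved by 0.82 and 0.30, also without a call. The order of gates was that of the Schwann and glial markers, whose part in the level of Adam23 was not tested. Its relative Adam22 was higher in R2 than in R1 by 0.67 (limma adjusted p = 0.0432), from 8.59, 8.30 and 8.48 to 8.83, 9.09 and 9.46. That call was lost with the mouse as a block (0.0743) and without any single array of R1, R2 replicate 4, R2 replicate 5 or R3 replicate 2 (0.0612 to 0.129). Centred arrays (0.0624), quantile normalization again (0.0807), averaged probe sets (0.0875) and only the 6 arrays compared (0.0603) also lost it. The second probe set of Adam22, with a mean of 8.29 beside 8.85, changed by 0.12 when tested singly (limma adjusted p = 0.657). Adam11, the third gene of this kind, was called in no comparison.

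Adam33 and Adam12, proteases of mesenchymal cells, fell in both papilla gates. Adam33 stood at 10.94, 10.73 and 10.89 in R1, 9.84, 9.13 and 9.43 in R2 and 8.98, 8.76 and 8.65 in R3, in descending steps without overlap. It was 2.62-fold lower in R2 (log2 change -1.39, limma adjusted p = 0.00104) and 4.18-fold lower in R3 (log2 change -2.06, limma adjusted p = 7.39e-05) than in R1. In R3 against R2 its change of -0.67 did not pass (limma adjusted p = 0.072), passed with the mouse as a block (0.0458) and passed for its second probe set tested singly (-1.02, limma adjusted p = 0.00654). Adam12 stood at 10.85, 10.56 and 10.95 in R1, 10.22, 9.70 and 10.12 in R2 and 9.59, 9.67 and 9.73 in R3. It was 1.7-fold lower in R2 (limma adjusted p = 0.0143) and 2.18-fold lower in R3 (limma adjusted p = 0.00136) than in R1, and the papilla gates overlapped.

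Adam9, a broadly expressed sheddase, rose from 9.09, 9.39 and 9.24 in R1 through 9.51, 9.49 and 9.47 in R2 to 9.84, 9.94 and 10.30 in R3. Adam9, Adamts3 and Mmp17 were the 3 genes whose arrays rose in steps from R1 to R3 without overlap, an order seen in 1.67% of all genes. Adam9 was 1.72-fold higher in R3 than in R1 (limma adjusted p = 0.00488), and its change of 0.54 in R3 against R2 did not pass (limma adjusted p = 0.072). After each array was centred on its median or quantile normalized again, Adam9 and Timp3 were called in R3 against R2, giving 5 higher and 5 lower genes in place of 3 and 5.

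The principal sheddases differed little. Adam10, which cuts Notch and cadherins, stood at 10.01, 10.04 and 10.33 in R1, 10.16, 10.14 and 10.45 in R2 and 9.95, 10.28 and 10.54 in R3. Its gates overlapped, and the 95% intervals of its 3 changes lay within -0.39 and 0.53. Adam17, which frees tumour necrosis factor and ligands of the EGF receptor, stood at 9.63, 9.77 and 9.71 in R1, 10.04, 9.98 and 9.85 in R2 and 9.90, 10.13 and 10.28 in R3. All papilla arrays were above R1, but the change of 0.39 in R3 against R1 did not pass (limma adjusted p = 0.0676), and passed without R3 replicate 2 (0.0396), after centring each array on its median (0.025) or quantile normalization again (0.0447), with the dimmer genes left out (0.0402) and with trend and robust variance (0.0422). The dimmer probe sets of Adam17 changed by -0.06 and -0.04 in R2 against R1 and by 0.30 and 0.18 in R3 against R1. None of these was called when tested singly (limma adjusted p = 0.891, 0.95, 0.327 and 0.688). Adam15, Adam19 and Adam8 were called in no comparison, and Adam28 lay under the background guide. The 16 remaining ADAM genes, most of them known from testis, were under the guide in every gate and called in no comparison, with gate means from 2.11 to 5.37.

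Of the 4 TIMP inhibitors, Timp3 was called in R3 against R1 and the others in no comparison. Timp3, the matrix-bound inhibitor that also blocks ADAM17 and aggrecanases, stood at 11.24, 10.99 and 10.77 in R1, 11.40, 11.01 and 11.06 in R2 and 11.89, 11.79 and 11.68 in R3. Every R3 array was above all others. It was 1.73-fold higher in R3 than in R1 (log2 change 0.79, standard error 0.16, limma adjusted p = 0.00801). In R3 against R2 the change of 0.63 did not pass (limma adjusted p = 0.0582), and passed with the mouse as a block (0.0299). It also passed in 6 other alternatives (0.024 to 0.0497), among them centred arrays (0.0283) and averaged probe sets (0.0305).

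Timp2, which also takes part in the activation of pro-Mmp2, stood at 11.48, 11.67 and 11.45 in R1, 11.32, 11.38 and 11.39 in R2 and 11.28, 11.36 and 11.42 in R3, and the 95% intervals of its changes lay within -0.43 and 0.25. Its 5 dimmer probe sets gave larger differences in R2 against R1, from -0.41 to -0.61, none of them called when tested singly (limma adjusted p = 0.126 to 0.193). Timp1, the soluble inhibitor induced by growth factors, stood at 6.82, 6.90 and 7.09 in R1, 6.59, 6.38 and 6.17 in R2 and 5.91, 6.45 and 6.67 in R3. It was lower than in R1 by 0.55 in R2 and 0.59 in R3 without passing (limma adjusted p = 0.109 and 0.0707). It passed in R2 against R1 without R3 replicate 2 (0.0498) and in R3 against R1 without R3 replicate 5 (0.0362). Timp4 was dim and variable, from 5.24 to 6.36 in R1, from 4.89 to 6.15 in R2 and from 3.85 to 5.54 in R3, and its gates overlapped.

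**Figure D4:**
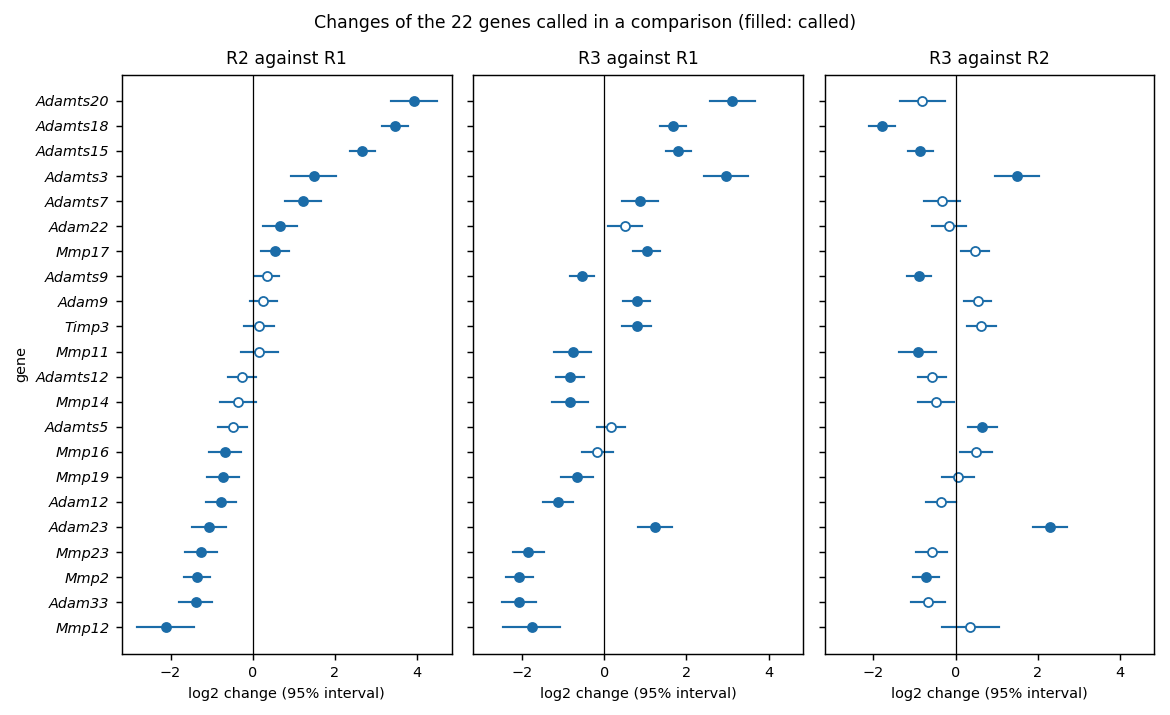
Log2 change (horizontal axis) with its 95% interval for the 22 genes called in at least 1 comparison (vertical axis, ordered by R2 against R1); filled circles are called (limma adjusted p under 0.05). Adamts20, Adamts18, Adamts15 and Adamts3 lie farthest to the right against R1, and Adamts18 and Adam23 farthest apart between R3 and R2.

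Other genes of the pathway came from 3 lists, whose calls are counted here. Over all genes, the shares called were 6.89% higher and 6.16% lower in R2 against R1. They were 7.9% higher and 10.8% lower in R3 against R1, and 1.97% higher and 3.06% lower in R3 against R2. Of 26 measured regulators of these proteases, 2 were higher and 5 lower in R2 than in R1, 3 higher and 7 lower in R3 than in R1, and 1 higher and 3 lower in R3 than in R2, with medians of -0.08, -0.15 and -0.05. Plau, the urokinase that activates plasminogen, was 3.56-fold lower in R2 (limma adjusted p = 0.000134) and 5.77-fold lower in R3 (limma adjusted p = 1.37e-05) than in R1. Serpinb2, an inhibitor of plasminogen activators, was lower by 2.87 in R2 and 2.87 in R3. Reck, a membrane inhibitor of MMPs, was 1.69-fold and 1.77-fold lower, and the convertase gene Pcsk6 2.28-fold and 2.98-fold lower. Rhbdf2, a partner of ADAM17, was 1.69-fold higher in R2 than in R1 and 1.91-fold lower in R3 than R2. The 1 gene of this list higher in R3 than in R2 was Fst, known as a binding protein of activin, at 2.41-fold. That call therefore says little about regulators of the proteases. Pi16, a peptidase inhibitor gene, was in R3 2.31-fold below R2.

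Of 15 related metzincins and ADAMTS-like genes, 0 were higher and 2 lower in R2 than in R1, 1 higher and 2 lower in R3 than in R1, and 1 higher and 0 lower in R3 than in R2. Adamtsl4 was 2.17-fold and 2.6-fold lower in R2 and R3 than in R1. Pappa2, a metzincin that cuts IGF-binding proteins, was the higher gene, 7.67-fold above R1 and 10.5-fold above R2 in R3. Among 35 substrates, 7 were higher and 8 lower in R2 than in R1, 5 higher and 11 lower in R3 than in R1, and 2 higher and 4 lower in R3 than in R2. Aggrecan (Acan), a target of Adamts15, Adamts4 and Adamts5, was 4.98-fold higher in R2 and 5.46-fold higher in R3 than in R1. Versican (Vcan) was 2.9-fold higher in R3 than in R1 and 2.32-fold higher than in R2. Thrombospondin 1 (Thbs1), a matrix glycoprotein, was 3.31-fold lower in R2 and 3.02-fold lower in R3 than in R1, and decorin (Dcn) 2.9-fold and 4.26-fold lower. L1cam, a neural adhesion substrate of ADAM proteases, was in R3 3.91-fold above R2, and Cdh5, the cadherin of endothelium, 7.7-fold lower.

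With the mouse as a block, the count in R3 against R2 was 3 higher and 8 lower, Adam33, Adamts12 and Adamts20 joining the lower genes. Leaving out R2 replicate 2 or R3 replicate 4 left 3 lower genes, and in R3 against R1 it was 6 without R1 replicate 2, where Adamts9, Mmp11, Mmp14 and Mmp19 were not called. For the 28 calls on genes with several probe sets, every other probe set of the gene had a change of the same sign. Not all of these were called when tested singly, and some changes were much smaller, as for Adam22.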

How the data were processed

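Total RNA of 9 sorted cell samples was amplified and measured on 1-colour biotin arrays, per the labels' protocols. The authors deposited log2 values, 1 for each probe set, and RMA is named in the submitters' processing notes; it corrects background, quantile normalizes and summarises probes. No version is stated, nor whether all arrays were normalized jointly. Amplification and quantile normalization can compress changes and hide a shift shared by most genes. RMA gives no detection call. The number of arrays limits the precision.

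Gene names came from the platform annotation; probe sets with several symbols took no part, and the probe set brightest on average stood for a gene. Gates were compared with limma 3.58.1 (R 4.3.3), 1 coefficient per gate, over all 18193 genes and 9 arrays, without a filter on dim genes. Benjamini-Hochberg adjustment was made within each comparison, with a call under an adjusted p of 0.05. The test was checked on simulated data. Gates of the same mouse are paired by the labels. Deviations from gate means correlated at 0.01 to 0.18 within a mouse and -0.16 to 0.04 between mice. The mouse entered as a block in an alternative.

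The genes, lists and tests were chosen with earlier results of these data known. Per comparison, up to 12 called genes that changed alike in the 3 mice were to be given by array, with the 4 TIMP genes, Adam10, Adam17, Mmp2, Mmp9 and Mmp14 always included, and up to 5 called genes from each list of other pathway genes were to be named. Further genes were named after their values were seen. Summaries used pandas 2.3.3 and numpy 2.4.6 under Python 3.11.15, and figures matplotlib 3.10.9. Alternatives left out each array in turn, used a fixed or random mouse block, other scalings, probe set rules and variance settings, only the 6 arrays compared, or a 2-fold minimum.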

Additional observations from a re-analysis of the deposited data

How the results depend on the processing

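In R3 against R2, where the main counts of called genes were 3 higher and 5 lower, the higher count was 5 after centring each array on its median, after quantile normalization again, with probe sets averaged per gene and with only genes above the median gene tested. The lower count was 8 with the mouse as a fixed block and 8 with probe sets averaged. With a minimum change of 2-fold the counts were 2 higher and 1 lower gene in R3 against R2, 5 higher and 5 lower in R2 against R1, and 6 higher and 5 lower in R3 against R1. Leaving out 1 array gave 2 to 3 higher and 3 to 5 lower genes in R3 against R2, 5 to 7 higher and 6 to 9 lower in R2 against R1, and 9 to 10 higher and 6 to 10 lower in R3 against R1. The cause of these shifts was not tested. The random block for the mouse left these counts within 1.5 times of the main ones. Of 64 results on single genes, 0 reversed direction among the calls in any alternative; 89 of their alternatives lost a call and 17 gained one, against 1099 that left it as it was. Testing all probe sets singly was an alternative chosen after the data were seen. Without detection calls, levels near the background guide, such as those of Mmp12, Mmp9, Timp4 and the R1 level of Adamts3, limit what their folds show.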
